A study of Mus musculus with 14 samples.

Results

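Cbx2, Cbx6, Cbx7 and Cbx8 are the Polycomb chromobox genes described here, 4 of the 24984 genes in each count table. The choice was made by family membership, with earlier results of these data known. These 4 genes were followed in 14 bulk RNA-seq libraries of c-KIT-positive differentiating spermatogonia sorted from the testes of C57BL/6J mice. In the deletion experiment, 2 mice carrying Rosa26-CreERT2 with Cbx2[Flox/Δ] had 3 intraperitoneal injections of 200 µL of tamoxifen at 20 mg/mL in corn oil. Their 2 controls carried Rosa26-CreERT2 with Cbx2[Flox/+] and had corn oil alone, so both groups hold the tamoxifen-activated recombinase, which the Rosa26 locus drives in most cell types and not in germ cells alone. The treated mice also carried 1 Δ allele before tamoxifen, so genotype and injection differ together and their effects cannot be told apart. In the 23KRA experiment, 5 untreated mice homozygous for the Cbx2[23KRA] allele, in which lysines and arginines of the CaPS domain are changed to alanine, were compared with 5 untreated Cbx2[+/+] mice. The protocols name 2, 2, 5 and 5 animals, the number of libraries in each group; the ages were not given in the sources used here.

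A Polycomb chromobox protein is the reading arm of canonical Polycomb repressive complex 1 (PRC1). Its chromodomain binds trimethylated lysine 27 of histone H3, the mark left by PRC2, and a short C-terminal box holds a RING ubiquitin ligase, so each complex carries a single chromobox paralog. The paralogs therefore stand in for one another at one place in the complex, and CBX2 also has a positively charged stretch that compacts chromatin and drives phase separation. In mice, Cbx2 (also called M33) is known for its part in gonad development, Cbx7 as a leading paralog of embryonic stem cells, and Cbx8 as a paralog that rises when those cells differentiate.

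The deletion libraries held 28169990 to 31166500 counts and the 23KRA libraries 14562564 to 19814511. Libraries of the 23KRA experiment differed more from each other, and edgeR's common coefficient of biological variation was 0.393 there, compared with 0.0988 for the deletion libraries. Levels are given as CPM, a gene's reads relative to library size, after scaling with TMM factors, which align the bulk of genes between libraries. The sorted population carried its markers in every library: Kit itself stood at 203 to 303 CPM, and Stra8, which licenses meiotic entry, at 507 to 596 CPM in the deletion and 541 to 819 CPM in the 23KRA experiment. Transcripts of other testis cells were present as well, and 6 spermatid markers summed to 2279 to 2954 CPM in the deletion libraries and 216 to 986 CPM in the 23KRA libraries. Levels were not tested between the experiments, because the library kits differ.

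Per kilobase of exon, Cbx2 was the most abundant of the 4 genes in every library, followed by Cbx8, then Cbx7, then Cbx6. In CPM, without the length, homozygous replicate 2 had more Cbx6 (2.44 CPM) than Cbx7 (1.91 CPM). On the per-kilobase scale, which allows different genes to be set side by side, Cbx2 stood at 22.5 ± 0.628 CPM per kb in oil controls (SD, n = 2) and at 17.2 ± 2.95 CPM per kb in wild type (SD, n = 5). That put Cbx2 above 80.1% of the 16554 genes ranked in the deletion experiment and above 77.2% of the 14105 ranked in the 23KRA experiment. Cbx8 was in the middle of the range, at 7.87 ± 0.578 and 6.72 ± 1.89 CPM per kb, above 59.0% and 55.3% of genes. Cbx7 was lower, at 1.91 ± 0.156 and 1.24 ± 0.256 CPM per kb, above 34.6% and 22.6% of genes. Cbx6 was the lowest, at 0.367 ± 0.150 and 0.435 ± 0.168 CPM per kb, above 14.6% and 9.42% of genes.

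The order per kilobase held in each library on its own. Cbx2 exceeded Cbx8 by 1.93-fold to 4.35-fold per kilobase over the 14 libraries, and Cbx8 exceeded Cbx7 by 3.54-fold to 21.7-fold. Cbx7 stood at 1.28-fold to 8.52-fold the level of Cbx6, and the lowest of these ratios, in a homozygote, was the smallest of any step. Ranges of neighbouring genes did not overlap within any of the 4 groups.

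As a share of the 4 genes' counts per kilobase, Cbx2 made up 68.1% and 69.7% in the oil controls and 61.9% and 68.2% in the tamoxifen-treated animals. Cbx8 made up 25.6% and 22.7% in controls and 32.0% and 23.7% in treated animals. Both genes overlapped between the groups: the lowest Cbx2 share and the highest Cbx8 share came from treated replicate 1, while treated replicate 2 lay within the control range. In the 23KRA experiment Cbx2 had a mean share of 67.1% ± 3.59 in wild type and 70.4% ± 5.35 in homozygotes (SD, n = 5 each), and Cbx8 had 26.1% ± 4.06 and 25.3% ± 5.17. The low paralogs had smaller mean shares in homozygotes: Cbx7 had 5.02% ± 1.48 in wild type against 3.31% ± 1.43, and Cbx6 1.78% ± 0.808 against 0.983% ± 0.419, with ranges that overlapped in both. These shares are parts of 4 chosen genes and received no test. Without the correction for length, Cbx6 had 4.32% in wild type and 2.45% in homozygotes, since its exons are the longest.

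**Figure D1:**
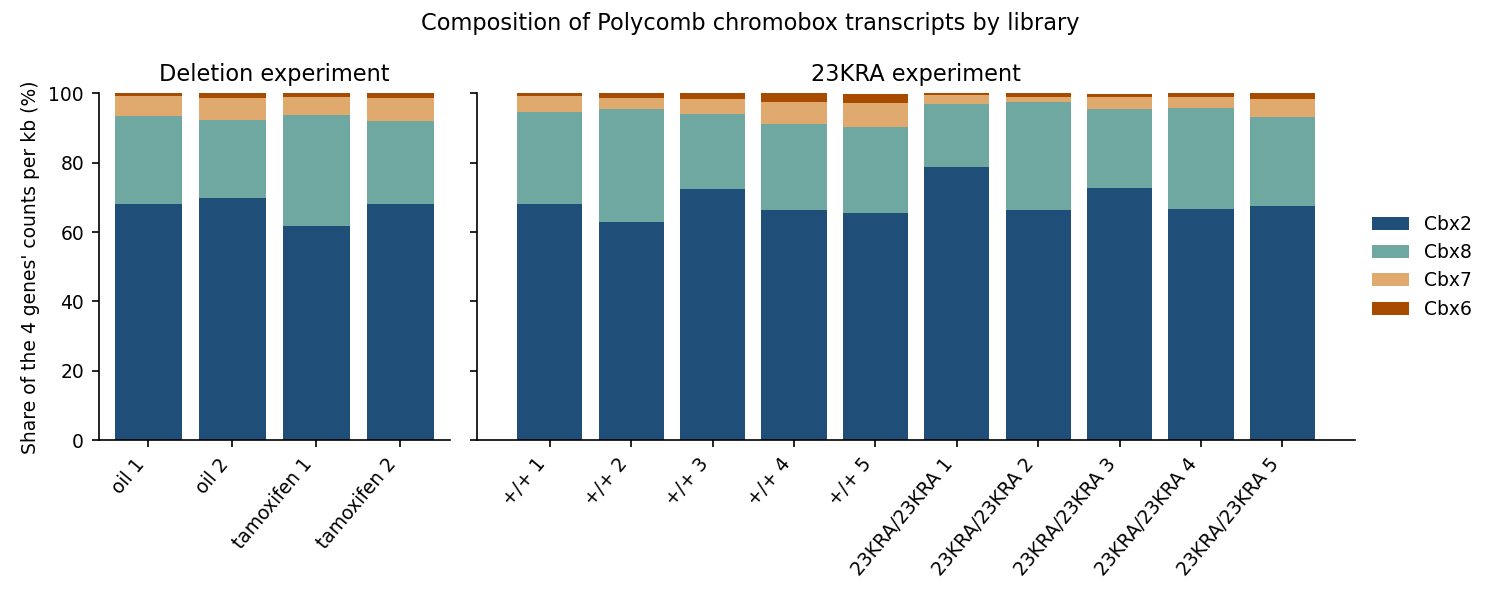
Stacked bars show, for each library, the percentage of the 4 genes' counts per kilobase of exon that belongs to each gene. Cbx2 fills 61.9% to 78.8% of every bar and Cbx6 at most 2.85%.

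Cbx2, the gene altered in both experiments, was lower in both treated animals than in both controls, by a small amount. Cbx2 (ENSMUSG00000025577.7, protein-coding) lies on chromosome 11 at 119022962 to 119031270 on the plus strand of GRCm38, the assembly also called mm10. Control replicates 1 and 2 had 93.9 and 97.7 CPM and treated replicates 1 and 2 had 78.5 and 86.5 CPM, from 2235 to 3073 reads a library. The groups did not overlap, but 17.5% of the 16725 genes tested also had both treated libraries below both controls. The log2 fold change was -0.21 (SE 0.12; 95% interval -0.45 to 0.022; edgeR quasi-likelihood test, adjusted p = 0.971), which corresponds to 0.731-fold to 1.02-fold. With 2 libraries against 2, an exact permutation test cannot give a p below 0.333. Over all genes the edgeR test called 2, or 0.012%: 1 marker of Leydig cells and 1 of peritubular and interstitial cells. The counts cover all exons and the sources used here do not name the floxed exons, so the Cbx2 value does not measure how many alleles were recombined.

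In the 23KRA experiment Cbx2 overlapped between the genotypes. The wild-type libraries, in replicate order, had 81.0, 79.2, 83.6, 53.2 and 68.0 CPM. The homozygous libraries had 89.7, 57.9, 73.9, 48.8 and 50.3 CPM. Homozygous replicate 1 was the highest of all 10 libraries, and the other 4 homozygotes lay below the wild-type median of 79.2 CPM. The log2 fold change was -0.19 (SE 0.16; 95% interval -0.52 to 0.15; edgeR adjusted p = 1.00). Single libraries moved it: it was -0.35 without homozygous replicate 1, -0.28 without wild-type replicate 4, -0.10 without homozygous replicate 4 and -0.11 without homozygous replicate 5. Reads over the changed codons differ from the reference, and how many of them were lost in homozygotes was not tested.

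**Figure D2:**
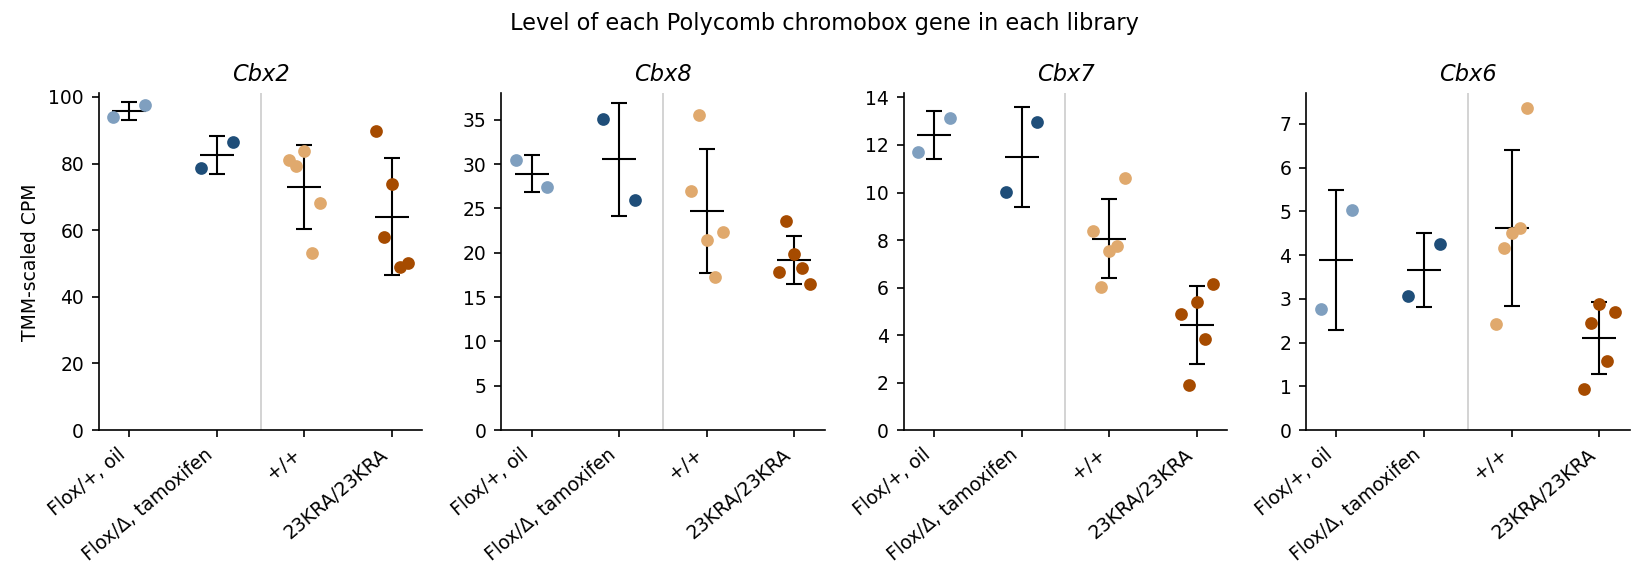
Points are libraries, and the black marks are the mean and SD of each group, in TMM-scaled CPM on axes that start at 0; the grey line separates the experiments, which were scaled apart. Homozygotes sit lower than wild type for Cbx7 and Cbx6, with means of 4.43 against 8.05 CPM and 2.11 against 4.62 CPM, while the deletion groups lie close together.

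Cbx8, the second most abundant paralog and the neighbour of Cbx2, was not called after tamoxifen. It lies on chromosome 11 at 119036305 to 119040969 on the minus strand (GRCm38; ENSMUSG00000025578.9), 5034 bases from the end of Cbx2, and the annotation shows no gene overlapping either. Its level was 30.4 and 27.4 CPM with oil and 35.1 and 26.01 CPM with tamoxifen, so the treated pair spanned the controls. The log2 fold change was 0.08 (SE 0.15; edgeR adjusted p = 0.974), and its 95% interval ran from 0.855-fold to 1.30-fold. In the 23KRA experiment wild type had 17.2 to 35.5 CPM with a median of 22.3 CPM, and homozygotes had 16.5 to 23.5 CPM with a median of 18.3 CPM. Of the 5 homozygotes, 4 were below the wild-type median, and 1 was below the lowest wild type. The log2 fold change was -0.36 (SE 0.21; 95% interval -0.79 to 0.064; edgeR adjusted p = 1.00), and -0.20 without wild-type replicate 2, the highest library.

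Cbx7 and Cbx6, the low paralogs, had the widest differences between 23KRA homozygotes and wild type, both downward, and neither passed the test over all genes. Both lie on the minus strand of chromosome 15: Cbx6 (ENSMUSG00000089715.12) at 79823896 to 79834688 and Cbx7 (ENSMUSG00000053411.16) at 79915807 to 79971119 (GRCm38), 81118 bases apart. Their promoters are shown because these are the members with the largest differences. They are RefSeq sequences (GRCm38.p6) of 300 bases around a transcription start, written along the gene's strand from chr15:79834284-79834583 for Cbx6 and chr15:79932597-79932896 for Cbx7, with capitals marking each CG dinucleotide. Both windows lie inside the GENCODE gene spans.
Cbx6: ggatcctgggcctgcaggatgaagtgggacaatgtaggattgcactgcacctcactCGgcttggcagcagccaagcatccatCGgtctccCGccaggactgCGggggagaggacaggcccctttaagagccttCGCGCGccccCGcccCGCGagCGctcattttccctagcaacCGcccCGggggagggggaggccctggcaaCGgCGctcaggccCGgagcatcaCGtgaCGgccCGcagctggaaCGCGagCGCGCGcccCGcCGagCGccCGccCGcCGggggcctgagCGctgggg
Cbx7: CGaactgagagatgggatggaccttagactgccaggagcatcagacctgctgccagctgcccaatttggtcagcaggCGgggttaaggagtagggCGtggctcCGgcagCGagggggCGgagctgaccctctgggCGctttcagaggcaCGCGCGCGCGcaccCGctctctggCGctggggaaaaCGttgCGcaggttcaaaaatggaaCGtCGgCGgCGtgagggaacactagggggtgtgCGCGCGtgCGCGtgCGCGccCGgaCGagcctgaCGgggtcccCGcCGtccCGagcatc
Both are rich in CG dinucleotides, with 31 in Cbx6 and 33 in Cbx7, against a median of 7 over the 32851 promoters in the table. Of those promoters, 10.6% hold 31 or more and 8.56% hold 33 or more. The Cbx8 promoter holds 24, which 20.0% of promoters reach. Sequences for 3 of the 4 genes were matched by symbol in this table. CG density is a description of these windows, and CG-rich promoters are the kind that Polycomb complexes are known to occupy in mammals.

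Cbx7 stood at 8.36, 6.03, 7.53, 7.74 and 10.6 CPM in wild-type replicates 1 to 5 and at 4.87, 1.91, 5.38, 3.84 and 6.13 CPM in homozygous replicates 1 to 5. All 5 homozygotes were below the wild-type median, and 4 of 5 were below the lowest wild type; homozygous replicate 5 overlapped wild-type replicate 2 by a narrow margin. Mean Cbx7 was 8.05 ± 1.66 CPM with the normal allele (SD, n = 5) and 4.43 ± 1.63 CPM with 23KRA (SD, n = 5), or 55.0% of the wild-type level. The log2 fold change was -0.86 (SE 0.37; 95% interval -1.63 to -0.096; edgeR quasi-likelihood p = 0.0293 before adjustment over all genes, adjusted p = 1.00), and the exact two-sided permutation p was 0.0159 (adjusted over all genes, 0.989). The smallest p that this exact test allows with 5 against 5 libraries is 0.00794.

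Cbx6 stood at 2.42, 4.16, 4.50, 4.62 and 7.37 CPM in wild-type replicates 1 to 5 and at 0.934, 2.44, 2.89, 1.59 and 2.69 CPM in homozygous replicates 1 to 5. Wild-type replicate 1 lay among the homozygotes, and the other 4 wild types were above all of them. Mean Cbx6 was 4.62 ± 1.78 CPM with the normal allele (SD, n = 5) and 2.11 ± 0.825 CPM with 23KRA (SD, n = 5), or 45.7% of the wild-type level. The log2 fold change was -1.13 (SE 0.52; 95% interval -2.21 to -0.040; edgeR p = 0.0428 before adjustment, adjusted p = 1.00), and the exact two-sided permutation p was 0.0317 (adjusted over all genes, 0.989).

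These differences have to be read against what other genes did. The edgeR test called 0 of 14208 genes (0%) in the 23KRA experiment, as did DESeq2 and limma-voom; 432 genes had an unadjusted p under 0.05 by edgeR, 524 by DESeq2 and 537 by limma-voom. Genes pass an unadjusted threshold of 0.05 even where no gene differs. Genes that were lower in homozygotes with an unadjusted edgeR p under 0.05 made up 1.36% of those tested. Of the 4 members, 2 were among them, a count of chosen genes that received no test. Of 4723 genes with a mean of 1 to 10 CPM, 5.8% had a log2 fold change at or below that of Cbx7. None of the 4 genes had all homozygotes below all wild types, a pattern that 0.274% of genes showed.

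Counting error is a part of the spread at this level. Cbx6 rested on 19 to 110 reads a library and Cbx7 on 29 to 166, so the lowest library alone had a counting error of 22.9% for Cbx6 and 18.6% for Cbx7. The coefficient of variation between wild-type libraries was 38.5% for Cbx6 and 20.6% for Cbx7. Part of Cbx6 (563 exon bases, 5.31%) is shared with Npcd, a same-strand gene listed at 0 in all 14 libraries, and 100 exon bases of Cbx7 overlap Apobec3 on the other strand, which had 69 reads over the 10 libraries. How the authors' counting treated reads in those stretches was not given in the sources used here.

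Markers of somatic cells were compared in the same libraries, since whole-population counts mix cell types; in bulk samples, fewer cells of a type and less RNA per cell cannot be told apart. All 4 endothelial markers and 5 of 6 macrophage and leukocyte markers had a lower mean in 23KRA homozygotes, and none was called. Summed endothelial markers ran from 2.83 to 9.18 CPM in wild type (median 4.43) and from 1.18 to 5.16 CPM in homozygotes (median 4.02). Summed macrophage and leukocyte markers ran from 7.31 to 122 CPM in wild type (median 18.2) and from 13.6 to 33.4 CPM in homozygotes (median 15.8). For Sertoli cells 4 of 7 markers had a lower mean (16.3 to 28.1 CPM against 12.5 to 30.9 CPM in sum), for Leydig cells 2 of 6 (13.0 to 20.3 against 11.4 to 17.5 CPM) and for peritubular and interstitial cells 3 of 6 (8.38 to 23.6 against 12.6 to 19.5 CPM). Col3a1 was at 0 in all wild-type libraries, and Amh and Acta2 were at 0 in all homozygous libraries. All 6 spermatid markers also had a lower mean in homozygotes, with sums of 259 to 972 CPM in wild type and 216 to 986 CPM in homozygotes. Of 8 markers of differentiating spermatogonia, 6 had a lower mean in homozygotes (1772 to 1935 CPM in sum against 1583 to 1917 CPM). Of 6 markers of undifferentiated spermatogonia, 3 had a lower mean (114 to 146 against 108 to 138 CPM in sum), with Nanos2 at 0 in all wild-type libraries. The part of these cells in the Cbx6 and Cbx7 values was not tested.

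After tamoxifen, Cbx7 and Cbx6 showed no change that the test could call. The level of Cbx7 was 11.7 and 13.1 CPM with oil and 10.015 and 13.0 CPM with tamoxifen, and the log2 fold change was -0.11 (SE 0.17; adjusted p = 0.974 by edgeR; 95% interval 0.728-fold to 1.18-fold). The level of Cbx6 was 2.76 and 5.02 CPM with oil and 3.06 and 4.25 CPM with tamoxifen, and the log2 fold change was -0.10 (SE 0.27; adjusted p = 0.983 by edgeR; 95% interval 0.640-fold to 1.37-fold). Replicate 2 was the higher library of its group for both genes, in controls and in treated animals. With 2 libraries a group, single libraries set the sign of the paralogs: without treated replicate 1 the log2 fold changes were 0.067 for Cbx7, 0.13 for Cbx6 and -0.15 for Cbx8, and without control replicate 2 Cbx6 had 0.40. Marker levels of other testis cells differed in mean in these libraries: 5 of 6 Leydig markers had a lower mean after tamoxifen (17.6 to 22.2 CPM in sum against 12.6 to 14.1 CPM) and 5 of 6 peritubular and interstitial markers a higher one (11.7 to 14.3 against 18.9 to 28.1 CPM), with 1 marker of each called. All 6 spermatid markers had a lower mean (2627 to 2954 against 2279 to 2613 CPM). The part of these cells in the chromobox values was not tested.

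**Figure D3:**
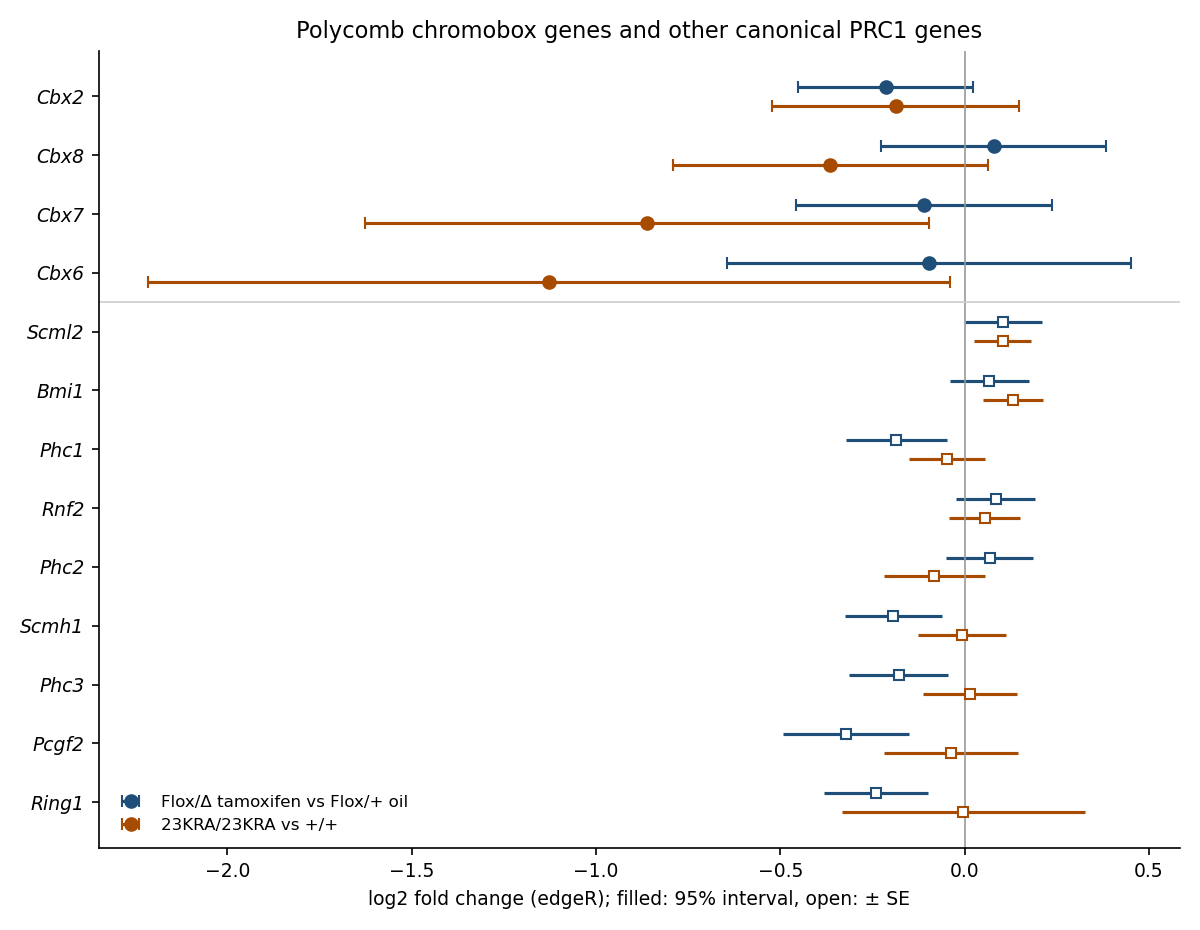
Filled circles are log2 fold changes of the 4 chromobox genes with their 95% intervals, and open squares are the 9 other canonical PRC1 genes with the standard error, blue for the deletion and brown for the 23KRA experiment. The values of Cbx6 (-1.13) and Cbx7 (-0.86) in 23KRA homozygotes lie farthest from 0, with the widest intervals.

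The question of compensation, whether paralogs rise when Cbx2 is altered, was put to their summed level. Cbx6, Cbx7 and Cbx8 summed to 44.9 and 45.6 CPM with oil and to 48.1 and 43.2 CPM with tamoxifen, so the treated pair spanned the controls. In the 23KRA experiment the same sum was 37.8, 45.7, 33.5, 29.6 and 40.3 CPM in wild-type replicates 1 to 5 and 23.6, 27.9, 28.1, 23.7 and 25.3 CPM in homozygous replicates 1 to 5, so every homozygote was below every wild type, by 28.1 against 29.6 CPM at the nearest. Sums in CPM also did not overlap with DESeq2 size factors or with no scaling factor. Added per kilobase of exon, the genotypes did overlap, so the separation held in CPM alone. Wild-type replicate 4 had 4.69, 1.19 and 0.436 CPM per kb of Cbx8, Cbx7 and Cbx6. Homozygous replicate 2 had 6.41, 0.295 and 0.230 CPM per kb and was higher in sum. The means of the CPM sums were 37.4 ± 6.19 and 25.7 ± 2.19 CPM (SD, n = 5 each), and Cbx8 supplied most of each sum. With Cbx2 added, the 4 genes summed to 82.8 to 125 CPM in wild type and 72.5 to 113 CPM in homozygotes, which overlapped, and to 139 and 143 CPM with oil and 127 and 130 CPM with tamoxifen, which did not. Of single genes, 17.5% had both treated libraries below both controls and 0.274% had every homozygote below every wild type, and these are not the rates for a sum of genes. No test was made on these sums of chosen genes, and no paralog was called higher in either experiment.

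No paralog had a relation with Cbx2 that passed the test over the 10 libraries of the 23KRA experiment. Across them, the log2 level of Cbx2 had a Pearson r of 0.476 with Cbx8 (permutation p = 0.162, adjusted over the 3 relations p = 0.485; Spearman rho 0.394, permutation p = 0.261, adjusted p = 0.784). With Cbx7 the Pearson r was 0.295 (permutation p = 0.425, adjusted p = 0.637; Spearman rho 0.164, permutation p = 0.655, adjusted p = 0.839). With Cbx6 it was -0.0186 (permutation p = 0.959, adjusted p = 0.959; Spearman rho -0.0788, permutation p = 0.839, adjusted p = 0.839). Without homozygous replicates 4 and 5, the libraries farthest from the median of Cbx2, r was 0.247 for Cbx8, 0.218 for Cbx7 and -0.390 for Cbx6. Of deviations from the genotype mean, r was 0.376, 0.0758 and -0.408 in the same order, and none of these relations passed. Cbx6 and Cbx7 had an r of 0.603 with each other (permutation p = 0.0648, adjusted over all 6 pairs p = 0.389; Spearman rho 0.636, permutation p = 0.0547, adjusted p = 0.328), a pair looked at after the values were seen. It was 0.531 without wild-type replicate 5 and homozygous replicate 1 and 0.145 for deviations from the genotype mean.

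**Figure D4:**
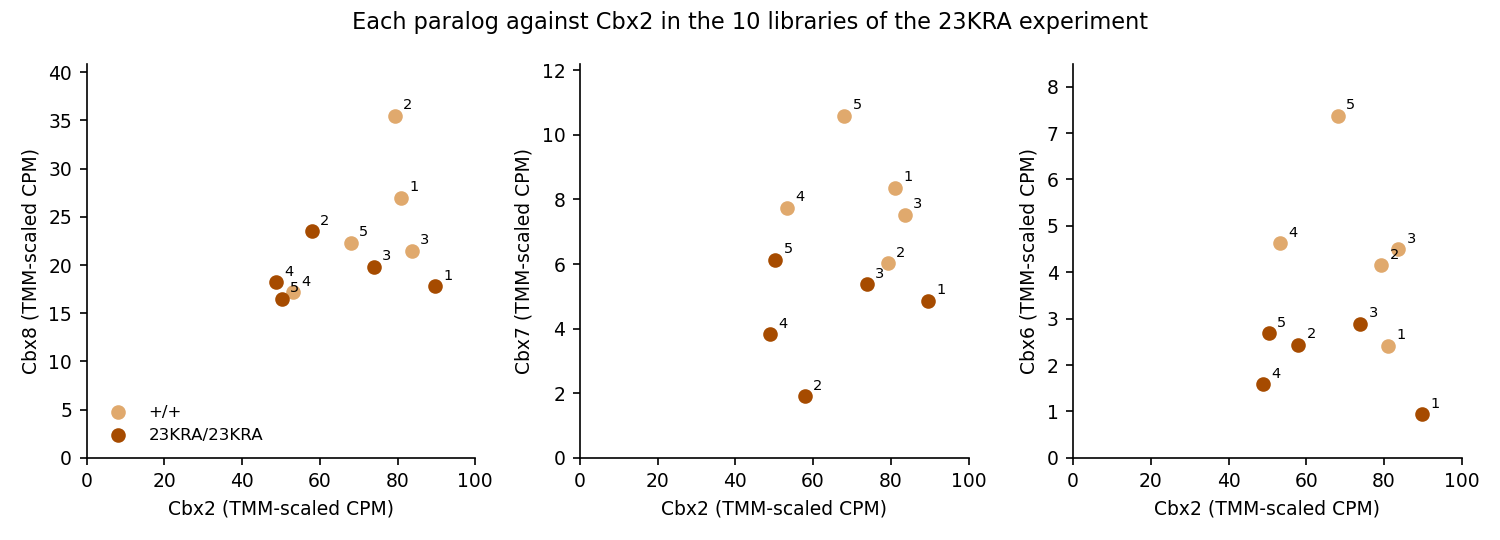
Each point is 1 of the 10 libraries of the 23KRA experiment, labelled by its replicate number, with Cbx2 on the horizontal and a paralog on the vertical axis, both in TMM-scaled CPM. Homozygotes and wild types separate along the Cbx7 and Cbx6 axes more than along the Cbx2 axis, and no paralog is highest where Cbx2 is lowest.

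A single fit of all 14 libraries set 23KRA homozygotes against wild type beside tamoxifen-treated Flox/Δ mice against oil-treated Flox/+ mice. In the latter, genotype and injection differ together, so the deletion effect below is that of both. The 23KRA effect minus the deletion effect was 0.045 for Cbx2 (SE 0.29; 95% interval -0.57 to 0.66), -0.43 for Cbx8 (SE 0.36), -0.73 for Cbx7 (SE 0.58; interval -1.95 to 0.48) and -1.02 for Cbx6 (SE 0.85; interval -2.80 to 0.76), on the log2 scale. The edgeR adjusted p was 1.00 for each of the 4 genes, so a different response of Cbx6 or Cbx7 in the 2 experiments was not shown, and the wide intervals do not show that they respond alike. This contrast called 0 of 17227 genes (0%) by edgeR, the sole tool used for it, and 112 had an unadjusted p under 0.05. Each gene had 1 dispersion for both experiments, although the common coefficient of biological variation was 0.393 in 23KRA and 0.0988 in the deletion. The part of this pooling in the width of the intervals was not tested.

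No other gene of canonical PRC1 was called in either experiment. Over all genes tested, 0.012% were called in the deletion and 0% in 23KRA. With so few calls, 0 in this list or in the lists below is not a result about their genes. Of 9 further canonical PRC1 genes, all tested in both experiments, 0 rose and 0 fell, with a median log2 fold change of -0.18 after tamoxifen and -0.0031 with 23KRA (-0.0044 and 0.0034 over all genes tested). The most abundant were Scml2, a SAM-domain subunit gene active in the germline, and Bmi1, which encodes the PCGF subunit that partners the RING ligase. Scml2 had 524 ± 42.6 and 563 ± 5.80 CPM in the deletion groups (SD, n = 2) and 479 ± 38.8 and 514 ± 45.1 CPM in the 23KRA groups (SD, n = 5). Bmi1 had 212 ± 13.9 and 222 ± 1.09 CPM in the deletion experiment and 182 ± 13.9 and 200 ± 13.9 CPM in the 23KRA experiment. In the deletion experiment the median of these 9 genes was -0.022 without control replicate 2 and 0.034 without treated replicate 1.

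Variant PRC1 complexes carry RYBP or YAF2 in place of a chromobox protein, and their 14 genes had 0 that rose and 0 that fell in each experiment (median -0.0064 in the deletion, 0.014 in 23KRA). Pcgf5 had 408 ± 7.55 and 441 ± 30.1 CPM in the deletion experiment, the ubiquitin protease gene Usp7 370 ± 3.61 and 366 ± 21.6 CPM, and in the 23KRA experiment Mga, a DNA-binding subunit gene, had 775 ± 52.5 and 793 ± 63.6 CPM and Usp7 573 ± 38.5 and 559 ± 40.4 CPM. None of the 12 PRC2 genes, whose product writes the mark that chromobox proteins read, rose or fell (median 0.00020 in the deletion, 0.0051 in 23KRA). The histone-binding subunit genes Rbbp4 and Rbbp7 were at 791 ± 5.14 against 810 ± 43.1 CPM and 536 ± 30.5 against 582 ± 68.3 CPM in the deletion, and Jarid2 was at 340 ± 43.3 and 319 ± 40.4 CPM with the normal and the 23KRA allele, and Rbbp7 had 327 ± 15.4 and 329 ± 21.7 CPM. By edgeR 1 PRC2 gene, Phf19, had an unadjusted p under 0.05 in the deletion experiment (1.98 ± 0.412 against 1.14 ± 0.266 CPM, SD, n = 2; adjusted p = 0.971), named here after its value was seen. Of all 16725 genes tested in the deletion, 793 had an unadjusted edgeR p under 0.05. In 23KRA no gene of these lists had an unadjusted p under 0.05, against 432 of all 14208 genes tested.

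The HP1 chromobox genes Cbx1, Cbx3 and Cbx5 share the chromodomain fold but bind methylated lysine 9 of histone H3. With 23KRA, Cbx1 had 268 ± 13.4 CPM against 278 ± 24.3 CPM in wild type, Cbx3 270 ± 12.3 against 245 ± 23.3 CPM, and Cbx5 202 ± 11.1 against 209 ± 31.4 CPM (SD, n = 5 each). In the deletion they had 147 ± 3.96 against 142 ± 5.16 CPM, 55.5 ± 4.59 against 55.7 ± 2.06 CPM and 95.4 ± 15.7 against 101 ± 3.18 CPM (SD, n = 2 each), and 0 of the 3 were called in either experiment (median log2 fold change 0.0061 after tamoxifen and -0.047 with 23KRA).

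The genes whose level followed Cbx2 most closely over the 10 libraries of the 23KRA experiment were not other chromobox genes. Among 8699 genes of at least 10 CPM, the highest Pearson r of log2 levels was that of Cecr2, a bromodomain gene of a chromatin remodelling complex, at 0.969. Next were Lonrf3 at 0.942, the translation inhibitor gene Pdcd4 at 0.938, the transcription factor gene Nfic at 0.929 and the Integrator subunit gene Ints1 at 0.921. Mean Cecr2 was 427 CPM with the normal allele and 399 CPM with 23KRA. Cbx8, the sole other member at that level, stood at rank 1343 of 8699. These values share libraries and depth, were picked as the highest of many, and carry no test.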

How the data were processed

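The authors deposited whole-number counts per gene symbol, not normalized. The submitters' processing notes name STAR 2.5.3 for mm10, Subread 1.5.0 with featureCounts, SAMtools 1.4.1 and Trim Galore 0.4.3; strandedness, annotation and the handling of multi-mapped reads were not given in the sources used here. Deletion libraries used a SMART-Seq mRNA kit and 23KRA libraries a stranded total RNA kit, per the labels' protocols, so each experiment was scaled and fitted apart, except that the difference of the effects came from 1 joint fit of all 14 libraries with 4 group means (17227 genes tested).

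Genes were kept by filterByExpr (all 4 members passed in both experiments), scaled by TMM and tested across all genes with edgeR 4.0.16 quasi-likelihood tests (R 4.3.3), two-sided, with Benjamini-Hochberg adjustment at 0.05 and 16725 and 14208 genes tested. DESeq2 1.42.0, limma-voom (limma 3.58.1), other scalings and filters, a replicate block and leaving out each library were alternatives. Exact permutation tests used log2(CPM + 1); correlations used 100000 permutations. The code was tested on simulated data. Exon lengths and positions are from GENCODE M21. Intervals of fold changes are at 95%. No pair of replicates agreed within counting noise (chi-square per degree of freedom 11.8 to 43.5). Reads were amplified, so counting errors cover counting only.

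The members and lists were chosen with earlier results of these data known. Named genes are the 4 members, up to 4 called genes or else the 2 most abundant of each list, the HP1 genes, and the 5 most like Cbx2. On the canonical PRC1 list, Scml1 was not analysed here: its name matched only as an older synonym of Scmh1. Other Polycomb chromobox genes are not reported here, and shares refer to the 4 genes alone.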

Additional observations from a re-analysis of the deposited data

How the results depend on the processing

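No member passed the threshold in any of 182 alternative fits of its effect or of the difference of effects (lowest adjusted p 0.357, for Cbx2 in the deletion under the replicate block). The number of genes called in the deletion was 8 with no low-count filter, 1 with a filter at 5 CPM, by DESeq2 and by limma-voom, 62 with the replicate block, and 2 to 73 with 1 library left out (11 without control replicate 1, 73 without treated replicate 2). In 23KRA it was 2 with the block. Same-numbered replicates had deviations correlated at -0.023 to 0.266 in 23KRA and at 0.253 in the deletion. In 23KRA replicate 3 was not closest to its own number, while replicates 1, 2, 4 and 5 were. Both deletion replicates were too, but with 2 libraries a group their deviations mirror each other and give 1 result. The labels do not say whether the numbers pair animals, and the main fit took the libraries as unpaired. A shared batch was not tested. Under the block, the unadjusted edgeR p was 0.0194 for Cbx2 in the deletion (0.0741 without the block). For Cbx7 in 23KRA it was 0.0198 (0.0293 without the block). It was above 0.05 for the other members in each experiment. In 23KRA, Cbx6 had an unadjusted p under 0.05 in 6 and Cbx7 in 7 of the 10 fits with 1 library left out. Over these fits the log2 fold changes ran from -0.35 to -0.10 for Cbx2, -1.29 to -0.89 for Cbx6, -1.01 to -0.67 for Cbx7 and -0.47 to -0.20 for Cbx8.

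With 1 library left out, deletion log2 fold changes ran from -0.45 to 0.40 for Cbx6, -0.31 to 0.067 for Cbx7 and -0.15 to 0.28 for Cbx8, and the difference of effects of Cbx2 from -0.12 to 0.13. The correlation of Cbx2 with Cbx6 ran from -0.246 to 0.364, and was 0.0092 with a pseudocount of 5. List medians ran from -0.26 to 0.034 (canonical PRC1), -0.060 to 0.042 (variant PRC1), -0.075 to 0.027 (PRC2) and -0.076 to 0.10 (HP1) in the deletion, and from -0.030 to 0.090 (canonical PRC1) and -0.073 to 0.033 (HP1) in 23KRA. With no length correction, shares in controls were 2.75% for Cbx6, 8.79% for Cbx7 and 20.5% for Cbx8, in treated animals 2.85% and 8.95% for Cbx6 and Cbx7, in wild type 4.32% and 7.48%, and in homozygotes 2.45% and 5.04%. By longest transcript, Cbx2 had 70.3% in controls and Cbx6 1.43% in treated animals. The cause of these shifts, apart from length and fewer libraries, was not tested. Where 1 library of a deletion arm was left out, the remaining one was assumed to vary like the other group. At a filter of 5 CPM, Cbx6 was removed from the fit of each experiment and gave no value there. Shares over exon bases not shared with another gene, a choice made after seeing the data, stayed within 1 SD of those reported.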
